A study of Mus musculus with 7 samples.

Results

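Chromatin accessibility at 10 genes of glucose metabolism was described: Myc and Hif1a, which encode the regulators MYC and HIF-1α, the glucose transporter genes Slc2a1 and Slc2a3, and the glycolytic enzyme genes Hk1, Hk2, Ldha, Pkm, Pfkl and Eno1. They were chosen by name, with earlier results of these data known, as the rows of a deposited peak list assigned to these genes. Of the 10 genes, 9 had a row, with 1 peak each, which made 9 of 6395 listed peaks. Hk1 had no row under its own name.

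The data are ATAC-seq, in which a transposase tags accessible DNA, of T follicular helper (Tfh) cells from the spleen. There were 4 samples from mice given an antibody to the type I interferon receptor chain IFNAR1, written as anti-IFNA1 in the sample labels, and 3 samples from mice given anti-rat IgG as control. All 7 samples came from B6.Sle1.Yaa mice, aged 5 months and dosed 2 times a week for 4 weeks. Every mouse, controls included, thus carried the lupus susceptibility locus Sle1 and Yaa, a Y-linked duplication that holds the RNA sensor gene Tlr7. Cells were sorted as CD4+, CD44+ and GITR-, with PSGL-1 low and both CXCR5 and PD-1 high, and the labels do not say how many mice gave each sample. The series title names the IL-21 and interferon-γ loci as the question of the study, and the 10 genes here lie outside it.

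The file held 1 list of peaks (mm10) whose coverage on the anti-IFNAR1 side exceeded the control IgG background, at a q below 0.05. Sites where control IgG coverage was the higher were not analysed here, and no value carries a spread between mice. Folds, pileups and q values are those of the authors' deposited table, and fragment numbers were recovered from them. Pooled over libraries, the anti-IFNAR1 side was 3.54 times as deep as the control side, against 1.33 for 4 and 3 samples of equal depth. A peak was listed for 21.1% of all protein-coding genes. It was listed for 6 of 8 Tfh and T cell markers (Bcl6, Pdcd1, Maf, Tcf7, Cd4 and Cd3e), 0 of 4 B cell markers, 0 of 4 CD8 T and NK cell markers and 2 of 4 myeloid markers (Cebpa and Cd14). At 4 to 8 genes a list these counts do not tell cell types apart, since a missing peak shows no difference called rather than closed chromatin. The part of other cells in the values below was not tested.

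Glycolysis breaks glucose down to pyruvate in the cytosol, and activated T cells use it for energy and for building blocks. Glucose enters through SLC2A (GLUT) transporters, hexokinases phosphorylate it, phosphofructokinase commits it to the pathway, enolase and pyruvate kinase carry out late steps, and lactate dehydrogenase turns pyruvate into lactate. MYC, which binds E-boxes (CACGTG) with its partner MAX, and HIF-1α, which binds hypoxia response elements with the core ACGTG or GCGTG, both activate genes of this pathway.

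The promoter sequences below are shown because the listed peaks lay at or beside gene starts and because the known binding letters of MYC and HIF can be looked for in them. Each gives the 250 bases upstream of a RefSeq start (GRCm38.p6, the same build as mm10), 5′ to 3′ on the gene's strand, with CACGTG or ACGTG or GCGTG, and their reverse complements, in capitals. Matches may overlap, since each CACGTG also holds ACGTG on both strands. The Hif1a window is chr12:73907617-73907866 (+), that of Slc2a1 chr4:119108495-119108744 (+), that of Ldha chr7:46845554-46845803 (+), that of Pfkl chr10:78009808-78010057 (-) and that of Hk1, at a downstream start of the gene, chr10:62340422-62340671 (-).
Hif1a: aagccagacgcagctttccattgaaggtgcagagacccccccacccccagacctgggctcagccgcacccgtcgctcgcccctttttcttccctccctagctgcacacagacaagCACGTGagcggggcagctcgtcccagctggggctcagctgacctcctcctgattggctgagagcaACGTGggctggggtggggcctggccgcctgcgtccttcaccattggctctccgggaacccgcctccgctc
Slc2a1: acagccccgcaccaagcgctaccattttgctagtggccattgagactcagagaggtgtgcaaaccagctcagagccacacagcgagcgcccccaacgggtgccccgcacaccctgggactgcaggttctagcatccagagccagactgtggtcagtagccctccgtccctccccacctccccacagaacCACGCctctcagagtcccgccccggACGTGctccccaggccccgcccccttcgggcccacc
Ldha: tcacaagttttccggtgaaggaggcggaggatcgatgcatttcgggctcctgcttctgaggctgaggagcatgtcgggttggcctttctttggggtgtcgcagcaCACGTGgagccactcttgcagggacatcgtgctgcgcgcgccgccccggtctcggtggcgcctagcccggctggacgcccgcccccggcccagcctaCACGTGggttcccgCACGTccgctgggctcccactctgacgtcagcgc
Pfkl: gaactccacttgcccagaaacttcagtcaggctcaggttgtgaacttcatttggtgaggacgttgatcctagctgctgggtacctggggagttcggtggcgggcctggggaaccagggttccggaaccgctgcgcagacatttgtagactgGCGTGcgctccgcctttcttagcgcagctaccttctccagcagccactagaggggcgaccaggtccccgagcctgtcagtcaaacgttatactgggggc
Hk1: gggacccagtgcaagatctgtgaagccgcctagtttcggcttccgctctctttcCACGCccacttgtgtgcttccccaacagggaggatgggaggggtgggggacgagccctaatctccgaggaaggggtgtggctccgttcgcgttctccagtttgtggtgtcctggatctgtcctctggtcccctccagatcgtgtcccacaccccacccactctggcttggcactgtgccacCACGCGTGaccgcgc

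The Ldha window held CACGTG 2 times and a further CACGT, and 142 of its 250 bases lay inside the Ldha peak. The Hif1a window held CACGTG 1 time and a further ACGTG, but none of its bases lay in the Hif1a peak, which began downstream of the start. The Slc2a1 window held 1 ACGTG and 1 CACGC and also lay outside its peak. The Pfkl window held 1 GCGTG, with 57 bases inside the peak, and the Hk1 window had CACGC and GCGTG letters, with 224 bases inside a listed peak. Among all 13 RefSeq windows of the 8 members with an entry, 2 held CACGTG, 5 held ACGTG, 7 held GCGTG and 0 held CCGGAAG, the letters bound by ETS factors. The 7 windows with GCGTG belonged to 5 members, since 3 were of Eno1, and 2 of those share 223 bases and the same sites. Over all 32851 such windows of the genome, the shares were 6.02% for CACGTG, 16.6% for ACGTG, 28.2% for GCGTG and 6.91% for CCGGAAG on either strand. Matches in these letters are a description and do not show binding.

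Among the members, 9 of 10 (90.0%) had a listed peak, against 21.1% of all 21900 protein-coding genes, a background that also includes genes closed in T cells. The members and the gene lists further below were chosen with earlier results of these data known. Their shares and folds are therefore descriptions and not independent results about glycolysis genes. Of the peaks, 8 were placed at a transcription start site (TSS) and 1, at Hif1a, in the first coding exon, whereas 72.4% of all listed peaks were at a TSS and 2.14% in a first coding exon. A single peak per gene was also the common case in the list, at 90.5% of the protein-coding genes that had any. The members' median fold enrichment over the control background was 6.46, with a range of 3.51 to 8.73, beside 4.74 over all listed peaks and 4.76 over listed TSS peaks. Their median pileup, the summit coverage on the anti-IFNAR1 side scaled to control depth, was 16.4, beside 11.6 over all listed peaks and 13.0 over listed TSS peaks. Thus 7 of the 9 peaks had a fold above the list's median, and 6 had a pileup above it.

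By role, both regulators, both glucose transporters and 5 of 6 glycolytic enzymes were listed. The median fold was 7.59 at the regulators, 4.41 at the transporters and 7.21 at the enzymes. The enzymes' range of 3.51 to 7.59 took in both transporters and the lower of the regulators, so the roles overlapped. The median pileup was 14.7 at the regulators, 16.7 at the transporters and 16.4 at the enzymes. Roles with 2 genes each allow no test, and the order of their medians is a description of single sites.

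**Figure D1:**
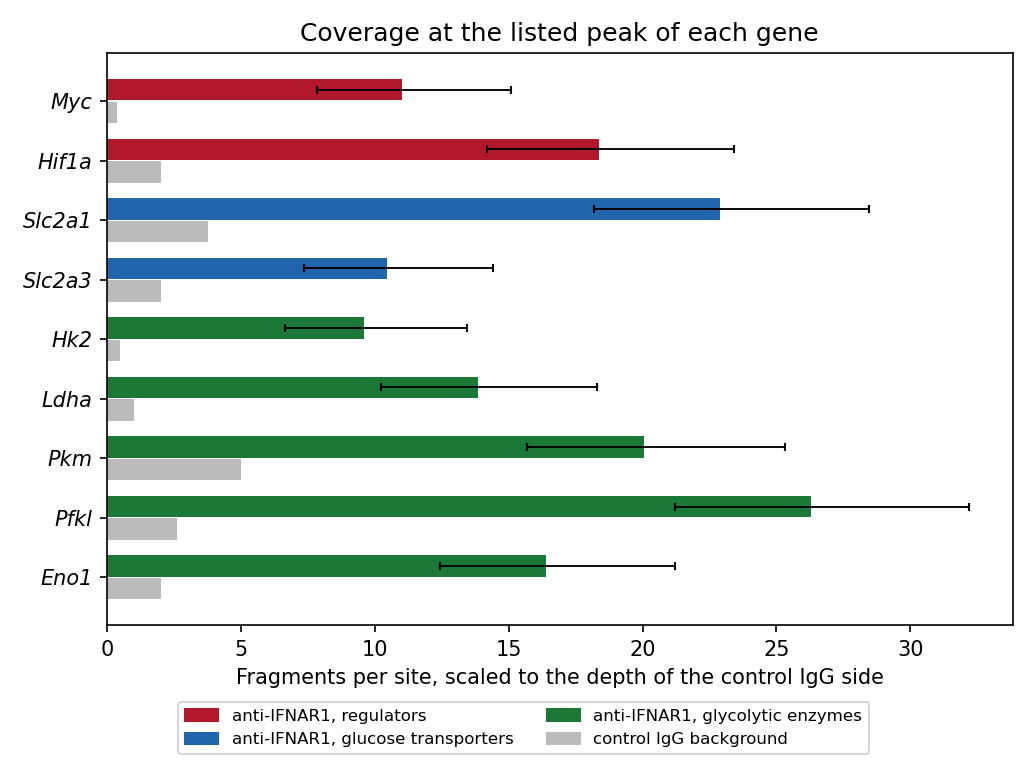
Scaled fragments per site at the listed peak of each gene: coloured bars give the anti-IFNAR1 pileup with exact Poisson 95% intervals (counting error of pooled fragments), and grey bars the control IgG background. Pfkl has the tallest anti-IFNAR1 bar at 26.3, Pkm the largest background at 5.00 and Myc the smallest at 0.378.

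Myc encodes the transcription factor that drives growth and metabolic genes in activated lymphocytes. Its peak (chr15:61986069-61988097, ENSMUSG00000022346) lay at the TSS of transcript Myc-002, inside the RefSeq gene at 61985341 to 61990361. At the summit there were 39 anti-IFNAR1 fragments, a pileup of 11.0, over a control background of 0.378, which gave the highest fold of the members, 8.73, with a q of 2.84e-10. The background came from 16 control fragments in the surrounding 10 kb, and the control side had 0 fragments at the summit itself. Set against a floor of 3 control fragments for a count of 0, the depth-scaled ratio was 3.67. That value leaves out the counting error of the 39 fragments, so it is not a lower bound. The peak was 2028 bp wide, rank 44 of 6395 by width and rank 223 by fold, while its pileup had rank 3416. Myc therefore combined a modest summit with a wide peak and a low background.

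Hif1a encodes the oxygen-regulated subunit of HIF-1, which T cells also make at normal oxygen after activation. Its peak (chr12:73908037-73908691, ENSMUSG00000021109) was assigned to coding exon 1 of Hif1a-002, a transcript that starts at 73907904. The summit lay 437 bp downstream of that start and 474 bp downstream of 73907867, the start of the RefSeq promoter entry. The RefSeq gene as a whole begins further upstream, at 73901324. It held 65 anti-IFNAR1 fragments, a pileup of 18.4, over 2 control fragments, for a fold of 6.46 (q = 8.30e-09). Scaled for depth, the ratio was 9.19 (exact conditional 95% interval 2.44 to 77.5). With 2 control fragments, the size of this difference is poorly fixed.

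Slc2a1 encodes GLUT1, the main glucose transporter of activated T cells. Its peak (chr4:119108749-119109207, ENSMUSG00000028645) had 81 anti-IFNAR1 fragments at the summit, a pileup of 22.9, over a background of 3.78 from 16 control fragments in 1 kb, for a fold of 5.00 (q = 1.49e-07). The file tied it to Slc2a1-004, a transcript marked for nonsense-mediated decay, yet the peak begins within a few bases of the RefSeq gene start at 119108745. With the most control fragments that the background allows at the site, 3, the depth-scaled ratio was 7.63 (exact 95% interval 2.52 to 37.8). A lower count there would raise this ratio and its interval. Against the 1 kb background itself the ratio was 6.06 (3.52 to 11.1).

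Slc2a3 encodes GLUT3, a high-affinity glucose transporter. Its peak (chr6:122801611-122801869, ENSMUSG00000003153) was the weakest of the members by q, with 37 anti-IFNAR1 fragments, a pileup of 10.5, over 2 control fragments, for a fold of 3.82 (q = 0.00897). It ranked 5114 of 6395 by q. The peak lay at the start of Slc2a3-008, a transcript 64557 bp long on the minus strand, and was 258 bp wide, close to the 236 bp minimum of the list. The depth-scaled ratio was 5.23 (exact 95% interval 1.35 to 44.8), the lowest lower bound among the 7 members with an interval at the site. Of the transporters, Slc2a1 thus had both the higher anti-IFNAR1 pileup and the higher control background, and the intervals of their ratios overlapped.

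**Figure D2:**
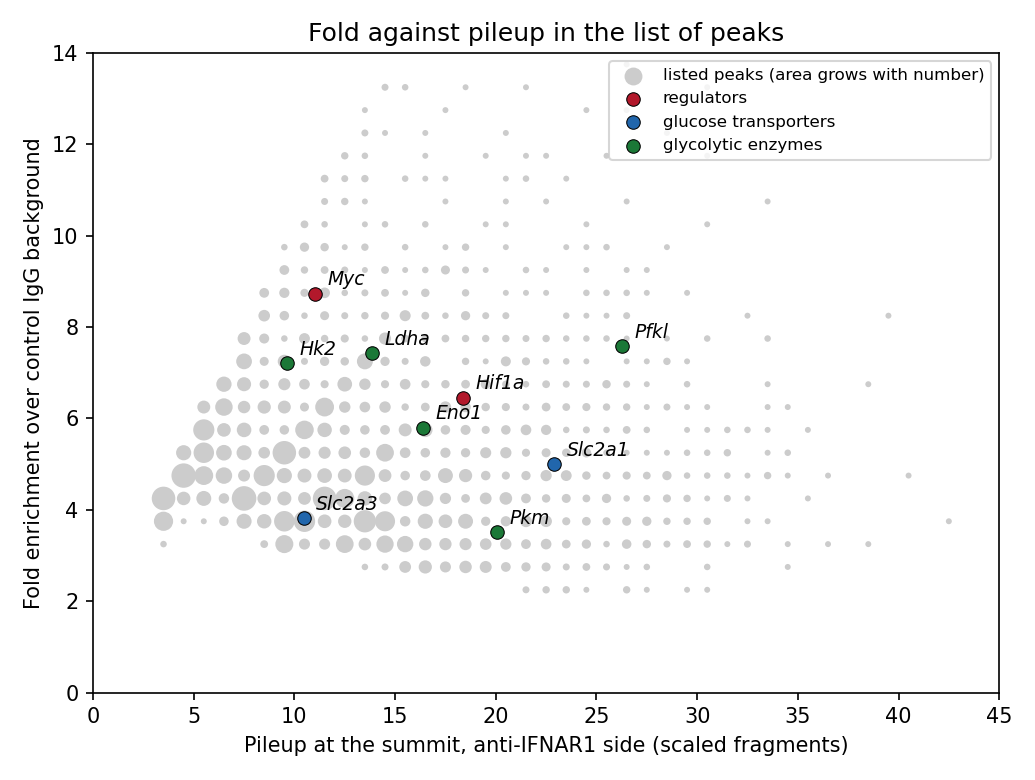
Fold enrichment over the control IgG background against anti-IFNAR1 pileup (scaled fragments), with listed peaks as grey dots whose area grows with the number of peaks in a bin, and the members in colour. The axes leave out 14 of 6395 peaks. Myc and Hk2 sit at high fold with low pileup, Pkm and Slc2a1 at high pileup with lower fold, and Pfkl is high on both axes.

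Pfkl encodes the liver-type subunit of phosphofructokinase, and its peak (chr10:78009382-78009864, ENSMUSG00000020277) had the smallest q of the members. There were 93 anti-IFNAR1 fragments, a pileup of 26.3, over a background of 2.60 from 11 control fragments in 1 kb. The fold was 7.59 and the q 8.10e-14, rank 127 of 6395 by q and rank 193 by pileup. With 2 control fragments, the most that the background allows at the site, the depth-scaled ratio was 13.1 (exact 95% interval 3.54 to 110.2). A lower count there would raise this ratio and its interval. Against the 1 kb background itself the ratio was 10.1 (5.41 to 21.0). The summit lay 132 bp inside the gene from the start of Pfkl-001, and the RefSeq start at 78009807 was within the peak.

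Ldha encodes the A subunit of lactate dehydrogenase. Its peak (chr7:46845661-46847140, ENSMUSG00000063229) was 1479 bp wide, rank 210 by width, and covered both RefSeq starts in the promoter table, at 46845804 and 46847082. The summit, between those starts, had 49 anti-IFNAR1 fragments, a pileup of 13.9, over 1 control fragment, for a fold of 7.43 (q = 4.13e-08). The depth-scaled ratio of 13.9 had an exact 95% interval of 2.37 to 558.1, which 1 control fragment cannot narrow.

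Hk2 encodes the inducible hexokinase. Its peak (chr6:82773529-82774519, ENSMUSG00000000628) had the lowest pileup of the members, 9.61 from 34 anti-IFNAR1 fragments, over a background of 0.472 from 2 control fragments in 1 kb. The fold was 7.21 and the q 5.93e-07. The background allows 0 control fragments at the summit, and against a floor of 3 the depth-scaled ratio was 3.20. As at Myc, that value leaves out the counting error of the anti-IFNAR1 fragments. Like Myc, Hk2 combined a high fold with a low summit and a low background.

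Eno1 encodes α-enolase. Its peak (chr4:150236708-150237155, ENSMUSG00000063524) had 58 anti-IFNAR1 fragments, a pileup of 16.4, over 2 control fragments, for a fold of 5.80 (q = 3.73e-07). The file measured it as 545 bp upstream of Eno1-005, but the summit lay 319 bp downstream of the first RefSeq start, at 150236708, and 170 bp upstream of the next. The depth-scaled ratio was 8.20 (exact 95% interval 2.17 to 69.3).

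Pkm encodes pyruvate kinase of muscle and of most dividing cells. Its peak (chr9:59656070-59657057, ENSMUSG00000032294) had a high pileup, 20.1 from 71 anti-IFNAR1 fragments, but also the largest control background of the members, 5 fragments at the site. Its fold of 3.51 was the lowest of the members, rank 5629 of 6395, with a q of 0.000173. The depth-scaled ratio was 4.01 (exact 95% interval 1.64 to 12.7). The summit lay 134 bp upstream of the start of Pkm-202.

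The 7 members with at least 1 possible control fragment at the site gave 21 pairs, and the intervals of the depth-scaled ratios overlapped in 21 of them. For Slc2a1 and Pfkl the site count was the most that the background allows. Overlap is not a test of order, so these 7 ratios are not ranked here. With each listed member set against its own background instead, the intervals overlapped in 34 of 36 pairs. There the Myc interval, 15.9 to 56.0, lay above those of Pkm, 1.64 to 12.7, and Slc2a1, 3.52 to 11.1. All these intervals cover counting error only and leave out any spread between mice. PCR copies, if present, are not independent molecules and would make the intervals too narrow. The peaks were also listed for high summit coverage over the control, which tilts each ratio upward. MACS2 takes the control background as a fixed value, so the deposited q values do not carry the counting noise of the few control fragments.

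**Figure D3:**
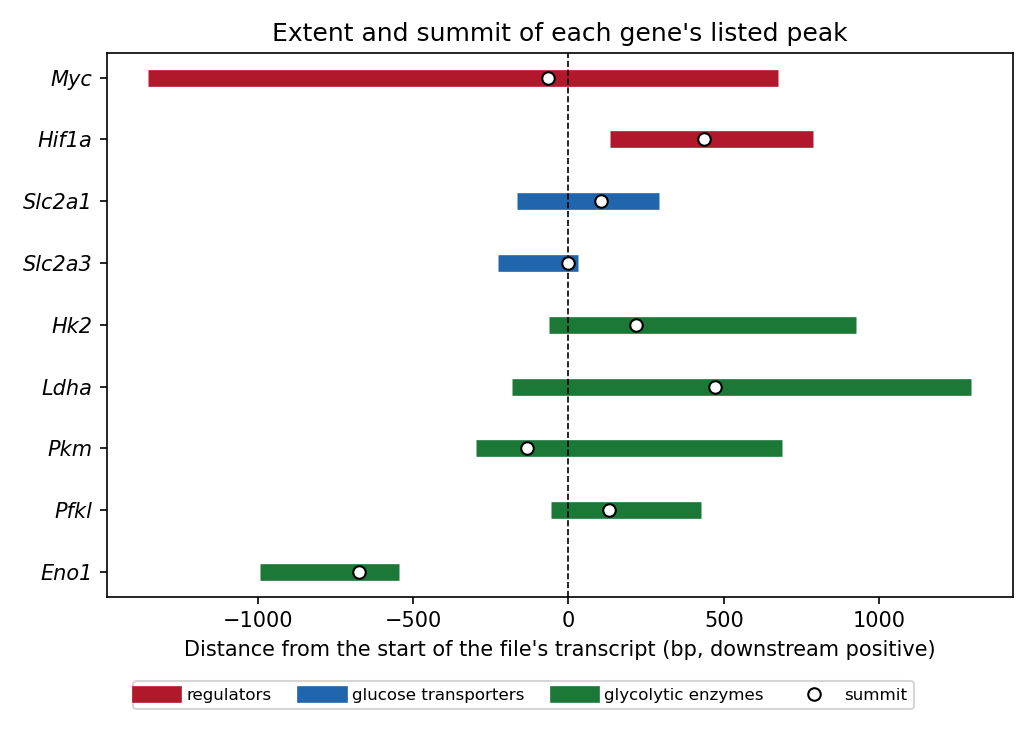
Extent (bar) and summit (white dot) of each listed peak in bp from the start of the transcript that the file names, downstream positive. The Myc peak runs from 1353 bp upstream to 675 bp downstream, the Ldha peak from 182 bp upstream to 1297 bp downstream, and the Eno1 and Hif1a peaks do not reach the named start.

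Hk1, the gene of the hexokinase found in most tissues, had no row, but a listed peak lay within the gene. It spanned chr10:62338961-62340645, inside the RefSeq Hk1 gene at 62268855 to 62379920, and the file assigned it to the TSS of the antisense transcript Hk1os-002. The RefSeq Hk1 start at 62340421 was inside this peak, with the summit 57 bp upstream of it. The site had 84 anti-IFNAR1 fragments, a pileup of 23.8, over a background of 4.48 from 19 control fragments in 1 kb, for a fold of 4.51 (q = 5.82e-07). With the most control fragments that the background allows at the site, 4, the depth-scaled ratio was 5.94 (exact 95% interval 2.23 to 22.3). A lower count there would raise this ratio and its interval. ATAC-seq has no strand, so accessibility at Hk1 and at Hk1os cannot be told apart here. The other RefSeq Hk1 start, at 62379908, lay in no listed peak.

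The remaining steps of glycolysis and lactate export had 7 of 17 genes listed (41.2%). For phosphofructokinase each of the subunit genes was listed: beside Pfkl, Pfkp, the platelet type, had 2 peaks with a fold of 7.0 each and Pfkm, the muscle type, 1 peak with a fold of 4.59 from 15 anti-IFNAR1 fragments. The aldolase gene Aldoa had a fold of 4.08, the triosephosphate isomerase gene Tpi1 4.84, Gapdh 4.48, the phosphoglycerate mutase gene Pgam1 4.77 and the lactate transporter gene Slc16a1 3.97. The isoenzyme genes Hk3, Aldoc, Pgam2, Eno2, Eno3, Pklr and Ldhb had no row, and neither had Gpi1, Pgk1 and Slc16a3. In these families, the listed genes included Hk2, Aldoa, Pgam1, Eno1, Pkm and Ldha.

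Of 9 genes grouped as switches of glycolytic flux, 2 (22.2%) were listed. The group also takes in the pyruvate dehydrogenase kinase genes Pdk1, Pdk2, Pdk3 and Pdk4, which act on the step after glycolysis. Pfkfb3, whose product makes the activator of phosphofructokinase, had 3 peaks with folds of 7.20, 5.75 and 2.95. Pdk1, which encodes a kinase that shuts pyruvate dehydrogenase, had a fold of 2.76 (q = 0.0496), at the edge of the list. This share lay near the 21.1% of all protein-coding genes.

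In the MYC network, 6 of 11 genes (54.5%) were listed. Mnt, a repressor of MYC targets, had 2 peaks with the highest pileups of this group, 30.2 and 32.5, over backgrounds of 7.08 and 9.44, with folds of 3.87 and 3.21. The MXD genes Mxd3 and Mxd4 had folds of 3.71 and 4.27, and Mxi1 had 2 peaks at 5.29 and 4.21. Mga, which encodes a MAX partner, had a fold of 4.17 and Mlxip, which encodes the glucose-responsive factor MondoA, 4.57. Max itself, Mycn, Mycl, Mxd1 and Mlx had no row. The Myc fold of 8.73 lay above each of these, and its control background of 0.378 lay below theirs.

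In the HIF pathway 3 of 8 genes (37.5%) were listed. Epas1, which encodes HIF-2α, had a fold of 7.38 from 26 anti-IFNAR1 fragments over the genome-wide background of 0.132. That background is below 1 control fragment, so the 1 that the caller adds to both sides made up most of this fold's denominator. The size of the difference at Epas1 is therefore poorly fixed. The prolyl hydroxylase genes Egln2 and Egln3, whose products mark HIF-α for decay, had folds of 4.31 and 4.48, while Egln1, Vhl, Arnt, Hif1an and Hif3a had no row. In the mTOR pathway, which raises HIF-1α and MYC protein in T cells, 4 of 9 genes (44.4%) were listed. These were Akt1 with a fold of 3.73, Tsc1 with 3.87, Rheb with 3.76 and the amino acid transporter chain gene Slc3a2 with 5.17, and Mtor, Rptor, Rictor, Tsc2 and Slc7a5 had no row. Together 22 of 54 genes on these lists (40.7%) had a peak, with a median fold of 4.31 over 27 peaks, beside 6.46 over the 9 member peaks. Of the 27, 22 were at a TSS, and the rest lay in introns of Pfkp, Mnt and Mxi1 and in 5′ UTR exons of Mga and Slc3a2.

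**Figure D4:**
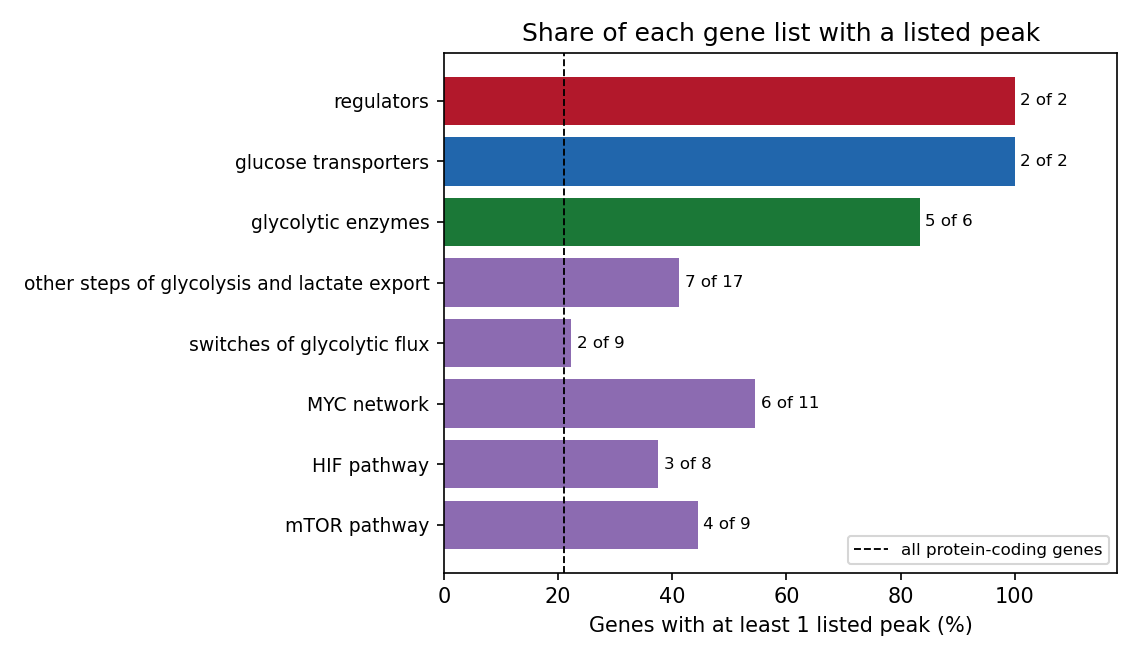
Share of the genes of each list with at least 1 listed peak (%), with counts beside the bars and a dashed line at the 21.1% of all protein-coding genes. Each list lies above the line, from 22.2% for switches of glycolytic flux to 100% for the regulators and transporters, which have 2 genes each.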

How the data were processed

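Splenic Tfh cells of 7 samples (4 anti-IFNAR1, 3 control IgG, from the treatment labels) were profiled by ATAC-seq. MACS2 2.1.0.20150420, BWA 0.7.9a, bedtools, DESeq2 and DiffBind 2.0.7 are named with build mm10, with no role, per the submitters' processing notes. The pileup is a signal, the summit coverage scaled by the authors, and the fold enrichment a ratio over local background, per the file headers. The headers of the columns read as −log10 p and −log10 q values, as deposited, are damaged, so these units were inferred from the column order. The direction was read from the deposited peak names, and pooling of libraries was assumed. Cut-site shifting and the handling of duplicates are not stated in the labels or headers. No column holds a single sample, so the planned fit per sample was not run.

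Every pileup was a whole multiple of 0.283 (tolerance 0.005), which gave back whole fragments and a depth ratio of 3.54. Control background was solved from the fold with a pseudocount of 1 on both sides. It was read as site, 1 kb, 10 kb or genome-rate counts for 236 bp fragments (tolerance 0.002), and a 10 kb count that is a multiple of 10 would be read as 1 kb. Recovery was tested on simulated data. Ratios have exact conditional (Clopper-Pearson) 95% intervals. Depth per sample is unknown. Shares of genes use RefSeq (GRCm38.p6), matched by Ensembl ID, symbol or synonym. Coordinates are as the file gives them, where length equals end minus start. Every member was named, and promoters are shown for regulators and for the 3 other members with the smallest q. The Hk1 window was added after its peak was seen, and Myc and Slc2a3 had no promoter entry. Members and lists were chosen with earlier results of these data known, and some planned list genes are not reported here. Alternatives changed peak assignment, section, q, pileup, fold and the ratio. Python 3.11.15, pandas 2.3.3 and SciPy 1.17.1 were used.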

Additional observations from a re-analysis of the deposited data

How the results depend on the processing

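Members with a listed peak numbered 9, and 10 when any peak within 5 kb of the gene span counted (29.1% of protein-coding genes), 8 with TSS peaks alone (18.5%), 9 at a q of at most 0.01 (18.1%) and 7 at a fold of at least 5 (9.59%). With a pileup of at least 20, 3 were left, Slc2a1, Pkm and Pfkl (3.21%). The members' median fold of 6.46 was 6.50 with TSS peaks alone and 5.00 with a pileup of at least 20. The median depth-scaled ratio, without pseudocount, was 8.20 over the 5 members whose background was the control count at the site itself. This median leaves out Slc2a1 and Pfkl, whose site count is not known. It also leaves out Myc and Hk2, where 0 control fragments at the summit give no ratio. Of the 9 single folds, that of Myc lay outside the interval of its ratio to the 10 kb background, 29.2 (15.9 to 56.0). Both values use the same 39 fragments and background of 0.378, and they differ by the pseudocount of 1 in the fold. Of the 54 pathway genes, 22 had a peak, and 26 when any peak within 5 kb of the gene span counted. They numbered 20 with TSS peaks alone and 20 at a q of at most 0.01. The pileup and fold minimums were not planned for these lists. A fold of at least 5 was reached only at Pfkp, Pfkfb3, Mxi1, Epas1 and Slc3a2, where the share of all protein-coding genes was 9.59%. The excess of these lists over all genes was therefore not shown to hold at that fold. No paired analysis was possible because no column carries a sample, and leaving out single libraries was not run for the same reason. Depth limits these results most on the control side, where at most 5 fragments stood at each member's site.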

Other observations

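Within 100 kb of the 10 genes, 13 further listed peaks lay near 8 of them and were assigned elsewhere, the Hk1os peak among them. The share of all protein-coding genes with such a neighbour was not computed, so these counts do not show clustering around the members. An intergenic peak (chr12:73881079-73881556) lay 19.8 kb upstream of the outermost RefSeq Hif1a start at 73901324, with a control background of 0.236, where 24 anti-IFNAR1 fragments gave a fold of 6.30 (q = 2.10e-05). Near Slc2a3, the TSS peak of Foxj2, a forkhead gene, 17.3 kb away, had a fold of 8.63, against the fold of 3.82 at Slc2a3 itself. It had 31 anti-IFNAR1 fragments over the genome-wide background of 0.132, so the pseudocount of 1 made up most of the fold's denominator. The peaks named here are examples, and folds of the 13 ran from 2.93 to 8.63. The lowest was at Gm5112, 9.21 kb from Slc2a3 and thus closer than Foxj2. Near Hk2, the TSS peak of the DNA polymerase subunit gene Pole4, 72.0 kb away, had a fold of 6.09 with 79 anti-IFNAR1 fragments. No further listed peak lay within 100 kb of Myc or Pfkl. Whether any of these sites acts on the metabolic genes was not tested.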
